A study of Mus musculus with 12 samples.

Results

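Receptors for dopamine and noradrenaline, together with Ppp1r1b, a protein that relays dopamine signals inside neurons, were compared between mice exposed to chronic social defeat (CSD) and homecage (HC) controls. The 9 genes named for this comparison were Drd1, Drd2, Drd4, Adra1a, Adra1b, Adra1d, Adra2a, Adrb1 and Ppp1r1b, and a gene was measured where an array probe set is annotated to it alone. This held for 5 of the 9, namely Drd1, Drd2, Drd4, Adra1b and Ppp1r1b, each with 1 probe set and each above system noise, of 17656 named genes measured in all. Adra1a, Adra1d, Adra2a and Adrb1 were not analysed here.
Both groups were wild-type adult male mice of the C57BL/6 strain, 6 in each, and the tissue was the medial prefrontal cortex (mPFC) of 1 mouse per array. A CSD mouse shared the home cage of an aggressive CD-1 male across a perforated divider for 14 days and met it without the divider for 5 min per day, while HC mice stayed in group housing. The mPFC was dissected 24 h after the last defeat, and 200 ng of its total RNA went on a single Affymetrix Mouse Gene 1.0 ST array. CSD mice were included by their behavior in a social interaction test and a light/dark test, so they are a screened group, and the age of the mice in weeks is not given in the sources used here.

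Dopamine and noradrenaline reach the prefrontal cortex from neurons of the midbrain and brainstem, and their receptors are G protein-coupled receptors on cortical cells. The dopamine receptor Drd1 raises cyclic AMP, whereas Drd2 and Drd4 lower it. The adrenergic receptor Adra1b acts through phospholipase C and calcium. Ppp1r1b encodes DARPP-32, which inhibits protein phosphatase 1 once protein kinase A has phosphorylated it. Drd1, Drd2 and Ppp1r1b are most abundant in the spiny neurons of the striatum, which lies close behind the mPFC, and in the cortex Drd1 and Ppp1r1b are found mainly in deep layers. In whole tissue, fewer cells of a type and less RNA per cell cannot be told apart.

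The arrays resembled each other, with a median correlation of an array to the others of its group between 0.991 and 0.996, lowest in HC replicates 6 and 2. All levels below are RMA values on the log2 scale, where a difference of 1 is a doubling. A second feature set 2 arrays apart. The mean of 13 measured genes of striatal neurons was 9.06 in HC replicate 1 and 9.02 in CSD replicate 7, while the other arrays lay between 8.63 and 8.81. Penk, the enkephalin precursor, reached 11.77 and 11.72 on these arrays and Tac1, the substance P precursor, 10.05 and 9.93, against at most 11.37 and 9.46 on the others. Both genes were chosen after their values were seen, and not all genes of the list were highest on these arrays. Adcy5 and Rasd2 were highest in HC replicate 2, at 9.90 and 9.49. Syndig1l was 7.68 in HC replicate 1, against 7.86 in HC replicate 4. Genes of deep-layer and upper-layer cortical neurons were present on all arrays, with list means of at least 9.79 and 9.72 against a system noise of 5.75. Results that rest on the 2 arrays are given with and without them.
Differences were tested with limma, a linear model fitted across 29838 probe sets, with Benjamini-Hochberg adjustment over all of them. After adjustment, at a fold change of at least 1.2, limma called 0 of the 5 genes and 0% of all named genes, and the methods' t-test also called 0 of the 5. At an unadjusted p under 0.05, limma gave 1 of the 5 genes, beside 8.41% of all named genes, split into 6.52% lower and 1.89% higher in CSD. The methods' t-test also gave 1 of the 5, and its share of all named genes is not given here. The mean was lower in CSD for 4 of the 5, as it was for 57.1% of all named genes.

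Drd1 was the 1 gene of the 5 that passed at an unadjusted p, and its level was lower after CSD. In HC mice its value ran from 8.74 over a median of 8.83 to 8.98. In CSD mice it ran from 8.51 over a median of 8.68 to 8.84. All 6 CSD mice lay below the HC mean, 4 of them below every HC mouse, while CSD replicates 6 and 7 lay among the HC mice, so the groups overlapped. The difference was −0.16 (standard error 0.06, 95% interval −0.29 to −0.03), or a level 10.3% lower. It had an unadjusted p of 0.0210 and an adjusted p of 0.476 in limma, with p = 0.0325 by exact permutation (two-sided). Without CSD replicate 10, the lowest array, the difference was −0.12 with an unadjusted p of 0.0503 in limma, and without HC replicate 1, the highest, −0.13 with an unadjusted p of 0.0511. Leaving out HC replicate 1 and CSD replicate 7 together, the arrays with high striatal genes, gave −0.16 (unadjusted p = 0.0162 in limma), and leaving out HC replicates 2 and 6, the arrays least like the others, gave −0.18 (unadjusted p = 0.0280 in limma).

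Drd2 differed more between single mice than between the groups. Its HC values ran from 8.09 over a median of 8.81 to 9.01 and its CSD values from 8.06 over a median of 8.54 to 9.05, so that the groups covered nearly the same range. Low values were found in HC replicate 4 and in CSD replicates 6 and 8, at 8.09, 8.16 and 8.06, and no other array lay below 8.39. Across the 12 arrays the highest value was 1.99 times the lowest on the linear scale. The pooled SD within groups was 0.38, larger than that of 99.8% of all named genes, whose median SD was 0.10, and larger than that of 99.7% of the 3454 genes within 0.5 log2 units of the level of Drd2. The group difference was −0.19 (standard error 0.20, 95% interval −0.61 to 0.24, adjusted p = 0.862 in limma), with p = 0.418 by exact permutation (two-sided). Single arrays moved the difference, which in limma was −0.09 and −0.11 if CSD replicate 8 or 6 was left out, and −0.29 and −0.31 if CSD replicate 7 or HC replicate 4 was. The interval does not show that the level of Drd2 was alike in both groups.

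The sequences just before the starts of Drd1 and Drd2 are shown because these genes carry the lower level and the wide spread. They are RefSeq promoter windows of build GRCm38.p6, each from 250 bases before a transcript start to 50 bases after it, and capitals mark the GC box (GGGCGG on either strand), a motif bound by Sp1-type factors. Windows were found for 4 of the 5 measured genes, 6 windows in all, and for Ppp1r1b there was no entry.
Drd1 promoter at the upstream start, chr13:54055609-54055908, minus strand: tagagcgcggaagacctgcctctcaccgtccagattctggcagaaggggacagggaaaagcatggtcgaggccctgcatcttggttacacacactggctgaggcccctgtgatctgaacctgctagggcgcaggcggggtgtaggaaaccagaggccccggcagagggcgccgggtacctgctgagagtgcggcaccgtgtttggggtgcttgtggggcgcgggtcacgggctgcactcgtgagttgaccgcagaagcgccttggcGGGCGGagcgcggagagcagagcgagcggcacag
Drd1 promoter at the downstream start, chr13:54054731-54055030, minus strand: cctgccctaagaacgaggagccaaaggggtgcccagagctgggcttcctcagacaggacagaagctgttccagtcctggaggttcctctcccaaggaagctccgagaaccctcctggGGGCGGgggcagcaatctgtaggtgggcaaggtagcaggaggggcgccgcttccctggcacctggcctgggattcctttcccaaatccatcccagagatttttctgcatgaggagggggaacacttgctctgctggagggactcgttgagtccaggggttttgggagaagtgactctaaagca
Drd2 promoter, chr9:49340153-49340452, plus strand: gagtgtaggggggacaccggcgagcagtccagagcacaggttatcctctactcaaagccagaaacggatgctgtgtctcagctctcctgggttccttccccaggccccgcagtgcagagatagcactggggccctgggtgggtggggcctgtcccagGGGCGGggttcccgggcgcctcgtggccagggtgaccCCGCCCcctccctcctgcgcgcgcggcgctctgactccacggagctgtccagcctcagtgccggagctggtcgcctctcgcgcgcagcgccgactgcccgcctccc
The 2 Drd1 windows each held 1 GC box and the Drd2 window held 2, and a GC box stood in 35.7% of all 32851 windows. The Drd2 window was 70.3% G and C, and the Drd1 windows were 65.7% and 59.3%, against a median of 52.7% over all windows. The cyclic AMP response motif TGACG, the TATA box TATAAA and the CCAAT box (CCAAT), searched separately on both strands, were not among the letters of these 3 windows, and they stood in 20.8%, 13.6% and 37.4% of all windows. The Drd4 window, not printed here, held 3 GC boxes and 1 CCAAT box and was 58.0% G and C. Of the Adra1b windows, that with 42.3% G and C held 0 GC boxes and 3 CCAAT boxes. The Adra1b window with 71.3% G and C held 2 GC boxes and 0 CCAAT boxes. A match is a description of the letters only, and the arrays measured no binding.

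**Figure D1:**
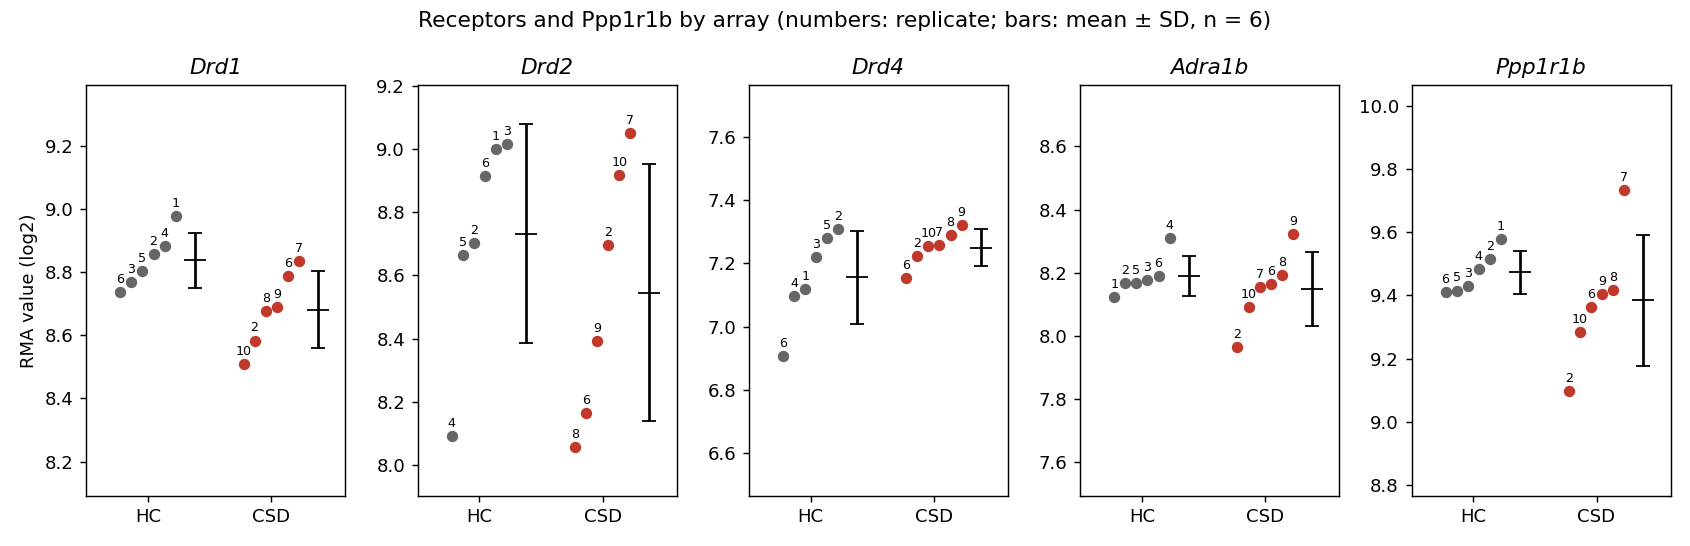
RMA values (log2, vertical axis, each panel spanning 1.3 log2 units) of Drd1, Drd2, Drd4, Adra1b and Ppp1r1b on each array, each point a mouse (HC grey, CSD red) with its replicate number, beside the group mean and SD for n = 6. For Drd1, 4 CSD mice lie below all HC mice, and Drd2 has 1 HC and 2 CSD mice near 8.1.

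Drd4, a D2-type receptor that is found in the prefrontal cortex, had the 1 higher mean among the 5 genes. Its HC values ran from 6.91 over a median of 7.17 to 7.31, and its CSD values from 7.15 over a median of 7.26 to 7.32. The 3 lowest values were all HC mice, replicates 6, 4 and 1, but the highest values of both groups lay side by side. The difference of 0.09 (standard error 0.06, 95% interval −0.04 to 0.23) had an adjusted p of 0.761 in limma and p = 0.175 in the exact permutation test, two-sided. Its SD was 0.15 in HC and 0.06 in CSD (n = 6 each). Without HC replicate 6, the lowest array, the difference was 0.05 in limma. HC replicate 6 also had the lowest median over all probe sets, and HC replicate 2, highest in Drd4 among HC mice, had the highest. With each array centred on its median, the difference of Drd4 was 0.08 (standard error 0.05) in limma. The part of the array medians in the HC spread of Drd4 was not tested.

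Adra1b, the alpha-1B adrenergic receptor, had closely similar means. The HC values ran from 8.12 over a median of 8.17 to 8.31 and the CSD values from 7.97 over a median of 8.16 to 8.32. CSD mice held both the lowest value, in replicate 2, and the highest, in replicate 9, so the HC range lay inside theirs. The difference was −0.04 (standard error 0.05, 95% interval −0.16 to 0.08, adjusted p = 0.894 in limma, exact permutation p = 0.465, two-sided). It was −0.00 without CSD replicate 2, −0.02 without HC replicate 4 and −0.07 without CSD replicate 9 in limma.

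Ppp1r1b spread more widely among CSD than among HC mice. Its HC values lay between 9.41 and 9.58 with a median of 9.46, and its CSD values between 9.10 and 9.73 with a median of 9.38. CSD replicate 7 had the highest value of all arrays and 4 CSD mice lay below every HC mouse, with replicate 2 the lowest. The SD was 0.07 in HC and 0.21 in CSD (n = 6 each), a contrast that was not tested. The mean difference was −0.09 (standard error 0.08, 95% interval −0.27 to 0.09, adjusted p = 0.844 in limma), with an exact permutation p of 0.366, two-sided. The value depended on single arrays. Without CSD replicate 2, the lowest, it was −0.03 (unadjusted p = 0.667 in limma), and without CSD replicate 7, the highest, −0.16 (unadjusted p = 0.0218 in limma, adjusted p = 0.534). Without HC replicate 1 and CSD replicate 7 together it was −0.14 (unadjusted p = 0.0486 in limma, adjusted p = 0.664).

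The other genes of catecholamine signaling were described from 5 lists of 76 genes, of which 67 were measured. At an unadjusted p under 0.05 in limma, 3 were lower and 1 was higher in CSD, or 5.97% of the 67 beside 8.41% of all named genes, and 0 passed the adjustment. The methods' t-test gave 6 without adjustment, and its share of all named genes is not given here. The balance of directions changed with the arrays left out. In limma it was 3 lower and 4 higher without HC replicate 2, and 1 lower and 7 higher without HC replicates 2 and 6. It was 1 lower and 1 higher without HC replicate 3, HC replicate 6 or CSD replicate 6. Without HC replicate 1 it was 5 lower and 1 higher, and without CSD replicate 2 it was 5 lower and 0 higher. With quantile normalization 1 was lower and 2 were higher. The median difference over all probe sets moved too, from −0.002 with all arrays to 0.017 without HC replicate 2. Without HC replicates 2 and 6 this median was 0.018. Shares of all named genes under these settings are not given here. The median difference of the 67 genes was −0.00, beside −0.01 for all named genes, and 38 had a lower and 29 a higher mean. Among all named genes 57.1% had a lower mean.
Of 6 further receptors, Drd3, Drd5 and Adra2c were measured and 0 passed. Drd3, a D2-type receptor, had a difference of −0.03 (95% interval −0.28 to 0.23), Drd5, which like Drd1 raises cyclic AMP, 0.02 (95% interval −0.07 to 0.10), and Adra2c, an inhibitory adrenergic receptor, 0.01 (95% interval −0.12 to 0.14). Drd3 values ran from 7.34 in HC replicate 4 to 8.05 in HC replicate 1, a wider range in HC than in CSD mice, where they lay between 7.41 and 7.79.

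Among 12 measured genes that make, carry or break down catecholamines, 3 were lower at an unadjusted p in limma. This was 25% of the list, beside 6.52% of all named genes. Qdpr encodes dihydropteridine reductase, which regenerates tetrahydrobiopterin, the cofactor of tyrosine hydroxylase. Its HC values ran from 11.11 over a median of 11.22 to 11.38 and its CSD values from 10.77 over a median of 10.99 to 11.08. All 6 CSD mice lay below all HC mice, as was the case, in either direction, for 1.01% of named genes. The difference was −0.29 (standard error 0.06, adjusted p = 0.188 in limma, exact permutation p = 0.00216, two-sided, the smallest that 6 against 6 allow).
The lower level of Qdpr ran beside that of genes of oligodendrocytes. All 11 measured marker genes of these cells were lower at an unadjusted p in limma, and 0 after adjustment. This was 100% of those measured, beside 6.52% of all named genes. The mean of these markers lay between 9.94 and 10.54 in HC and between 9.38 and 9.91 in CSD mice, with Gjc3, a connexin, at −0.68 and Mog, a myelin surface protein, at −0.84. Their part in the value of Qdpr was not tested. Ddc, the enzyme that forms dopamine from its precursor, had a difference of −0.15 (standard error 0.07, unadjusted p = 0.0416 in limma), but its exact permutation p was 0.0606. Maob, a monoamine oxidase found mainly in glia, differed by −0.10 (standard error 0.05, unadjusted p = 0.0435 in limma, exact permutation p = 0.0433). Markers of astrocytes had lower means in 10 of 12 genes, where 57.1% of all named genes had a lower mean. Their list means lay between 10.22 and 10.43 in HC and between 10.24 and 10.32 in CSD mice. S100b, at −0.18, and Aqp4, the water channel of astrocytes, at −0.18, passed at an unadjusted p in limma. They were 16.7% of the list, beside 8.41% of all named genes. The part of astrocytes in the value of Maob was not tested. Th, the tyrosine hydroxylase that limits catecholamine synthesis, had a value of 0.11 (95% interval −0.08 to 0.29).

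**Figure D2:**
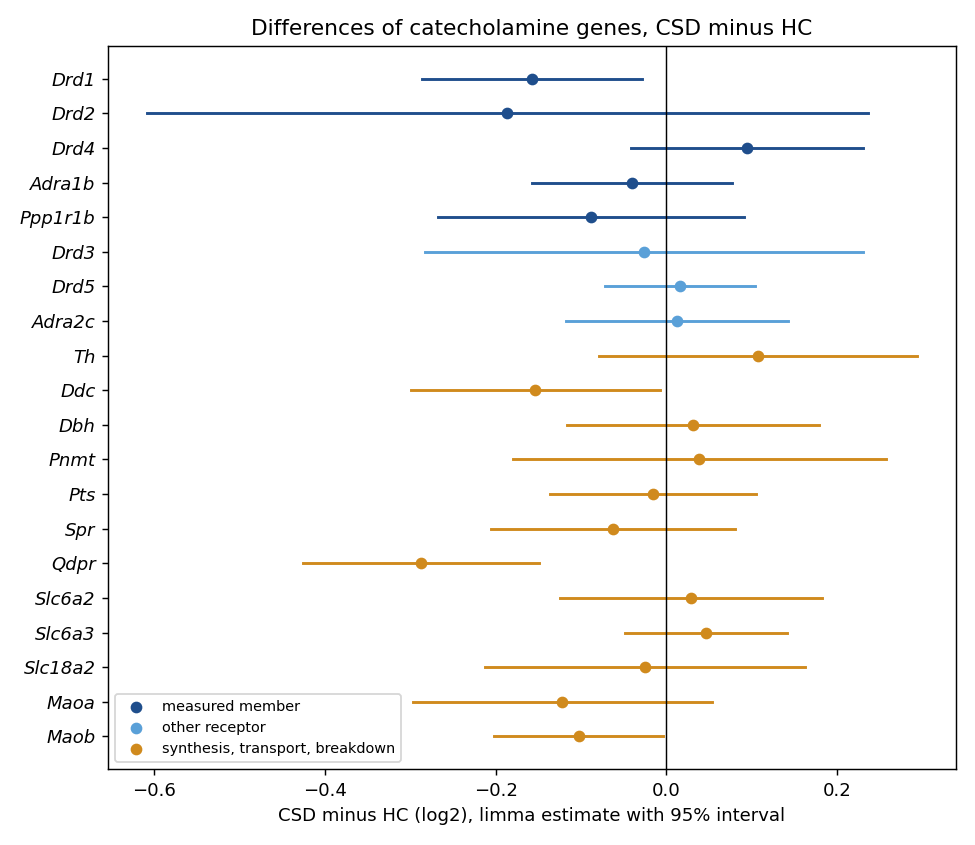
Differences (CSD minus HC, log2, horizontal axis) of the 5 genes, of 3 other receptors and of 12 genes of catecholamine synthesis, transport and breakdown, as points with the 95% interval from limma (n = 6 per group). The intervals of Drd1, Ddc, Qdpr and Maob lie below 0, and that of Drd2 is the widest.

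Downstream of the receptors the differences were small. Of 21 measured G protein subunits, adenylyl cyclases and phospholipases C, 0 passed at an unadjusted p in limma, with a median of −0.03 and a range from −0.07 to 0.06. The smallest p belonged to Adcy2, an adenylyl cyclase, at −0.06, and to Gnai2, an inhibitory G protein subunit, at −0.07. Of 19 measured kinases and phosphatases that act on DARPP-32 or with it, 1 was higher and 0 were lower. This was 5.26% of the list, beside 8.41% of all named genes in either direction and 1.89% higher. The 1 higher gene was Ppp1cb, a catalytic subunit of protein phosphatase 1, the target of DARPP-32, at 0.09 (standard error 0.04, unadjusted p = 0.0330 in limma, adjusted p = 0.544, exact permutation p = 0.0303). Prkar2a, a regulatory subunit of protein kinase A, had a value of −0.10, and the list had a median of −0.00.
Of 12 measured genes that desensitize receptors or regulate their G proteins, 0 passed in limma. Grk5, a receptor kinase, had a value of −0.15 (unadjusted p = 0.0602 in limma) and Grk3, another one, 0.06 (unadjusted p = 0.0903 in limma, exact permutation p = 0.0498), with a median of 0.01 over the list.

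The levels of Drd1 and Ppp1r1b went up and down together between mice. Over the 12 arrays Pearson's r was 0.75 (permutation p = 0.00527, 0.0527 adjusted over the 10 pairs of the 5 genes) and Spearman's rho was 0.80 (permutation p = 0.00237, adjusted 0.0237). Without the arrays at the ends of the Drd1 range, HC replicate 1 and CSD replicate 10, the pooled r was 0.75. With the group means removed r was 0.76 (permutation p = 0.00815, adjusted 0.0815), and 0.70 when the 2 farthest arrays were then left out. Leaving out HC replicate 1 and CSD replicate 7 gave a pooled r of 0.77. Of the other 9 pairs 0 passed the adjustment by r or by rho. Drd1 and Drd2 had an r of 0.03 (permutation p = 0.919, rho = 0.14 with permutation p = 0.668), and Drd2 and Ppp1r1b one of 0.21 (permutation p = 0.513, rho = 0.34 with permutation p = 0.277). The arrays share dissection and RNA quality across genes, and the part of these in the correlations was not tested.
As a description over the 12 arrays, with the group means removed, the named genes closest to Drd1 were Scd2 (r = 0.95), Zar1l (r = 0.92) and Snora31 (r = 0.84). Zar1l ran only from 5.96 to 6.18, near the system noise of 5.75. Closest to Drd2 were Pbx3 (r = 0.94), Slc1a3 (r = 0.92) and Gpc3 (r = 0.90), and closest to Ppp1r1b were Flna (r = 0.89), Agbl5 (r = 0.89) and Crtap (r = 0.89). These are the highest of 17656 genes measured on few arrays.

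Because the striatum lies next to the dissected tissue, the genes were set beside markers of striatal neurons. Of 15 such genes 13 were measured, 10 with a lower and 3 with a higher mean in CSD mice. Of all named genes 57.1% had a lower mean. At an unadjusted p in limma 0 of the 13 passed, beside 8.41% of all named genes. The list mean ranged from 8.66 to 9.06 in HC and from 8.63 to 9.02 in CSD mice. Pdyn, the dynorphin precursor, had a value of −0.11 and Isl1, a transcription factor of developing striatal neurons, one of −0.21.
Drd2 followed this list, with r = 0.72 (permutation p = 0.00755, 0.170 adjusted over the 45 relations of 5 genes and 9 marker lists) and rho = 0.83 (permutation p = 0.00157, adjusted 0.0706). Without HC replicate 1 and CSD replicate 7 its r was 0.76, and without HC replicate 4 and CSD replicate 8, the farthest from the median of Drd2, it was 0.68. Its relation to the 12 genes of inhibitory neurons, a type that includes the neurons of the striatum, had an r of 0.80 (permutation p = 0.00237, adjusted 0.107) and a rho of 0.78 (permutation p = 0.00354, adjusted 0.0796). Drd2 also ran with the astrocyte list, at r = 0.63 (permutation p = 0.0272, adjusted 0.260, rho = 0.70 with permutation p = 0.0141), or 0.48 without HC replicate 4 and CSD replicate 8, and with the oligodendrocyte precursor list at r = 0.54 (permutation p = 0.0702, rho = 0.54 with permutation p = 0.0756). For Ppp1r1b the r with the striatal list was 0.63 (permutation p = 0.0289, adjusted 0.260, rho = 0.50 with permutation p = 0.0989). Without HC replicate 1 and CSD replicate 7 this r was 0.09. It was 0.44 without CSD replicate 7 alone, and 0.63 without CSD replicates 2 and 7, the farthest from the median of Ppp1r1b. The r of Ppp1r1b with the endothelial and mural list was 0.59 (permutation p = 0.0466, adjusted 0.262, rho = 0.62 with permutation p = 0.0340), and 0.63 without CSD replicates 2 and 7. For Drd1 the r with the striatal list was 0.45 (permutation p = 0.144, adjusted 0.499, rho = 0.27 with permutation p = 0.404). Without HC replicate 1 and CSD replicate 7 it was −0.11. Of the 45 relations 0 passed the adjustment by r and 0 by rho. They were computed after the values had been seen. The part of striatal tissue or of other cell types in the values of Drd1, Drd2 and Ppp1r1b was not tested.

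**Figure D3:**
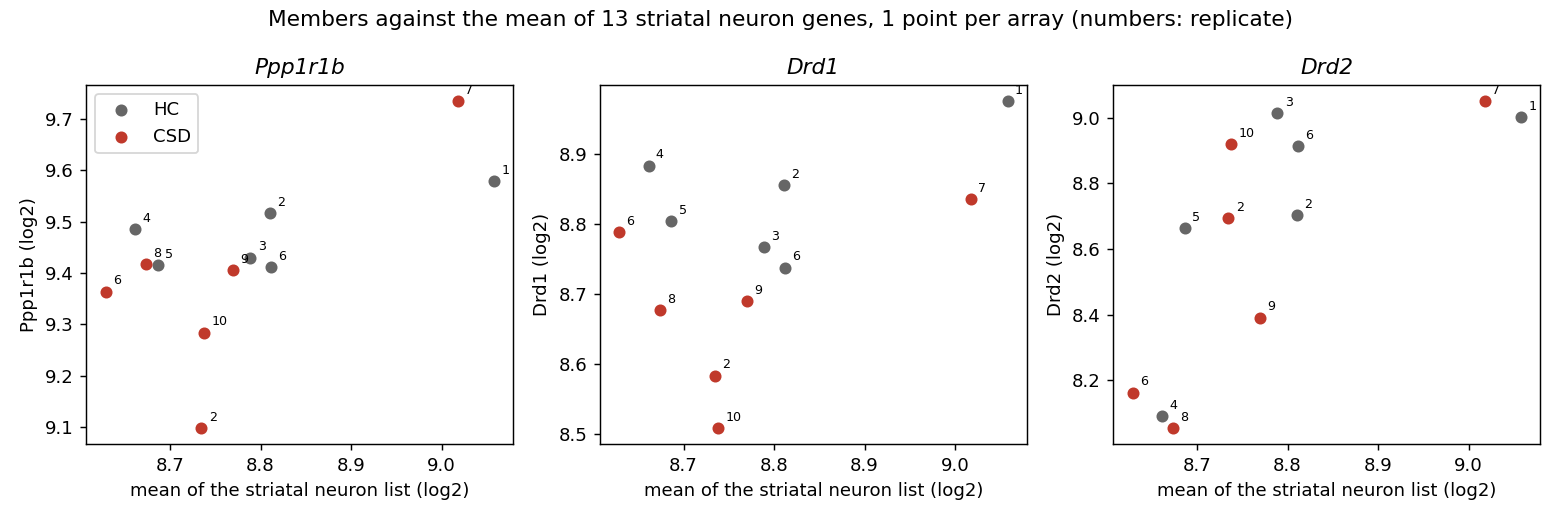
Values of Ppp1r1b, Drd1 and Drd2 (log2, vertical axes) against the mean of 13 striatal neuron genes (log2, horizontal axes), 1 point per array with its replicate number, HC in grey and CSD in red. HC replicate 1 and CSD replicate 7 lie apart on the right, and the arrays with low Drd2 lie on the left.

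Drd1 was also set beside genes of deep-layer cortical neurons, all 12 of which were measured. At an unadjusted p in limma 4 were lower and 1 was higher in CSD mice, or 41.7% of the list beside 8.41% of all named genes. A lower mean was found for 10, where 57.1% of all named genes had one, and the median was −0.12. Ntsr1, a neurotensin receptor that marks layer 6 neurons, had a difference of −0.23 (standard error 0.09), Tle4, a corepressor of layer 6, −0.15 (standard error 0.06), Hs3st4, a sulfotransferase, −0.13 (standard error 0.05) and Syt6, a synaptotagmin, −0.12 (standard error 0.05). Crym, a thyroid hormone binding protein, went the other way at 0.10 (standard error 0.04). Their adjusted p in limma was between 0.461 and 0.560, so that none passed.
The list mean ranged from 9.89 to 10.09 in HC and from 9.79 to 9.97 in CSD mice. Its correlation with Drd1 was 0.59 over all arrays (permutation p = 0.0440, adjusted 0.262, rho = 0.69 with permutation p = 0.0165 and adjusted 0.185) and 0.36 with the group means removed (permutation p = 0.267). Within groups it was −0.20 in HC and 0.79 in CSD mice, so the pooled relation did not hold in HC mice. Without HC replicate 1 and CSD replicate 10 the pooled r was 0.71, but with the group means removed, leaving out the farthest arrays gave 0.07. Deep-layer neurons were not alone in this. The r of Drd1 with the oligodendrocyte list was 0.59 (permutation p = 0.0435, rho = 0.66 with permutation p = 0.0234), and 0.17 with the group means removed. Leaving out the farthest arrays then gave −0.22. By group, the r with this list was −0.50 in HC and 0.77 in CSD mice. With the endothelial and mural list the r of Drd1 was 0.55 (permutation p = 0.0656, rho = 0.48 with permutation p = 0.121), and 0.49 with the group means removed. Within groups this r was 0.11 in HC and 0.82 in CSD mice. Without HC replicate 1 and CSD replicate 10 its pooled value was 0.32. With the group means removed, leaving out the farthest arrays gave 0.16. The part of any of these cell types in the lower level of Drd1 was not tested.

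**Figure D4:**
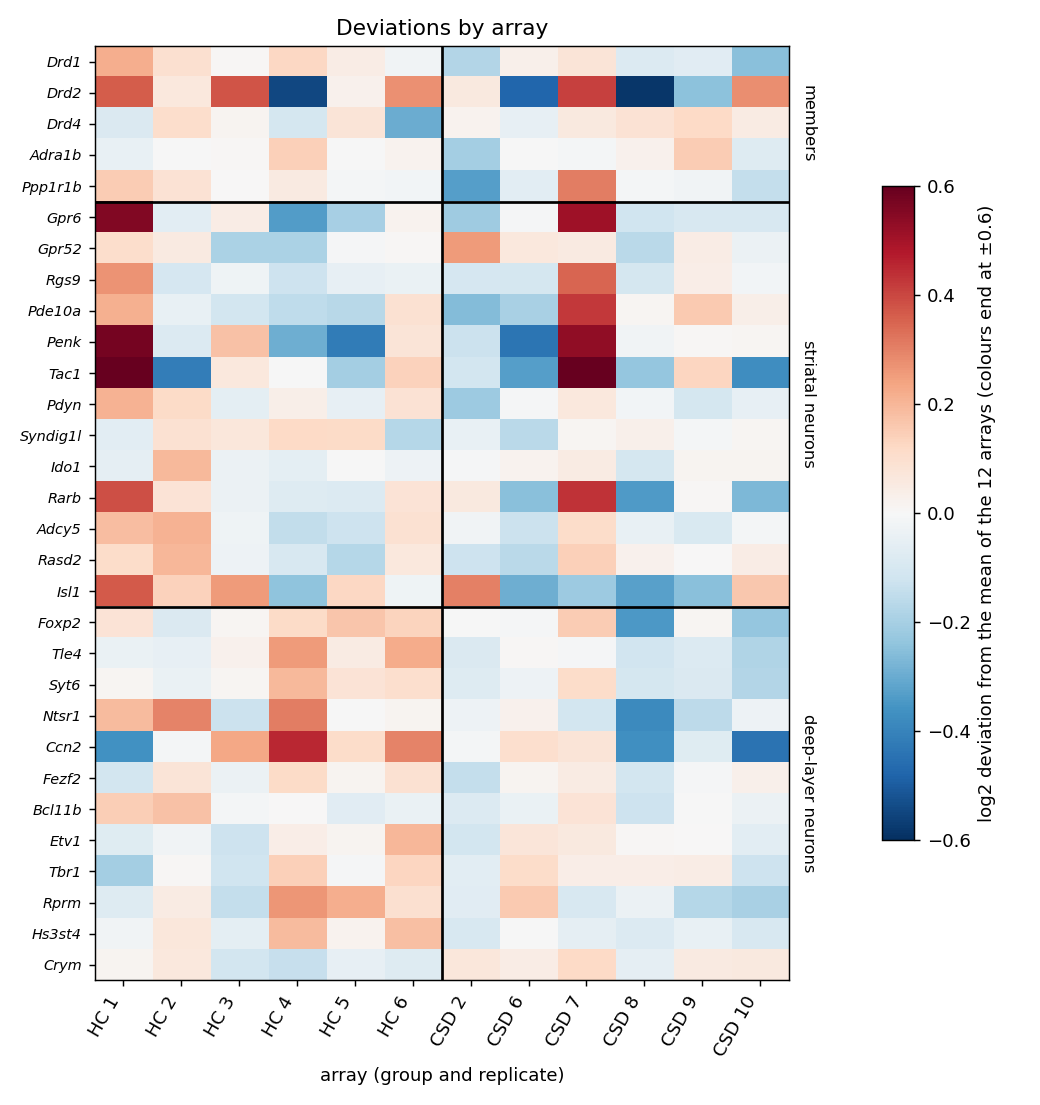
Deviation of each gene from its mean over the 12 arrays (log2, colour scale ending at ±0.6) for the 5 genes, 13 striatal neuron genes and 12 deep-layer neuron genes (rows) on each array (columns, HC left and CSD right of the line). Penk, Tac1 and Gpr6 are high in HC 1 and CSD 7, and Drd2 is low in HC 4, CSD 6 and CSD 8.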

How the data were processed

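Each of 12 mice, 6 HC and 6 CSD, gave mPFC RNA for an array of its own. The deposited values are on the log2 scale, and the authors obtained them by RMA (Affymetrix Expression Console, version not given in the sources used here), which corrects background, makes arrays comparable and combines the probes of a probe set, so that differences may be compressed. The table holds 35556 probe sets, and the number of arrays limits the precision.

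Genes were named through the platform annotation, which pairs 21789 probe sets with 1 gene, and of several for a gene the brightest was taken. Where the smoothed coefficient of variation (LOWESS, span 0.2) turned linear in the mean, at a log2 value of 8.5, lay above the median of 7.56, so system noise was set to the 20th percentile of all values, 5.75. This kept 29838 probe sets, and 4.67% of their values were raised to it. Groups were compared with limma 3.58.1 in R 4.3.3 without covariates, with exact permutation tests over the 924 assignments of 12 arrays for single genes, and with permutation tests (100000 resamples) for correlations. The test was tried on simulated data.

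The 9 genes and all gene lists were chosen with earlier results of these data known. Named are all measured genes of the 9, the 2 genes of each list with the smallest p, any others past an unadjusted p where they number 5 or fewer, and the 3 genes closest to Drd1, Drd2 and Ppp1r1b. The lists cover other catecholamine receptors, catecholamine synthesis, transport and breakdown, G proteins and adenylyl cyclases, kinases and phosphatases of DARPP-32, receptor desensitization, and striatal, deep-layer, upper-layer and inhibitory neurons, astrocytes, oligodendrocytes, their precursors, microglia, and endothelial and mural cells. Penk, Tac1, Gpr6, Adcy5, Rasd2, Syndig1l and Th were named after their values were seen. The alternatives were the methods' t-test, other floors, filters and normalizations, other variance models, the replicate number as a block, gene means, and left-out arrays.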

Additional observations from a re-analysis of the deposited data

Results flagged for a closer look

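Adra1b in HC replicate 4 stood apart from the other HC mice, with a value of 8.31 where the others lay between 8.12 and 8.19. The distance to its nearest neighbour made up 0.651 of the spread from lowest to highest HC value, past the 95% limit of Dixon's test for 6 arrays. Chance gives about 1 such value in 20 groups. The same mouse had the lowest Drd2 of the HC group, at 8.09. Without it the difference of Adra1b was −0.02 in limma.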

How the results depend on the processing

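The number of the 5 genes called after adjustment was 0 in limma under all 25 alternatives, the methods' t-test included. The number at an unadjusted p was 1, ranged from 0 (without HC replicate 1 or CSD replicate 10) to 2 (without CSD replicate 7) when 1 array was left out, and was 2 without HC replicate 1 and CSD replicate 7 together, an alternative chosen after seeing the data. Every difference kept its sign in the 25 alternatives. For Drd1 it ranged from −0.19 to −0.12 with 1 array left out and from −0.18 to −0.11 otherwise. The number of pathway genes at an unadjusted p was 4. Centring each array gave 2. The number ranged from 1 to 7 when 1 array was left out, with 7 without HC replicate 2 and 1 without CSD replicate 8, and was 8 without HC replicates 2 and 6 together. Shares of all named genes under these alternatives are not given here. Over all probe sets limma called 0, but 14 where eBayes used a trend and was robust, 21 with only probe sets of 1 gene and 1 with quantile normalization. Pairs of the 5 genes with a correlation past the adjustment by r numbered 0, and from 0 to 1 with 1 array left out, the 1 being without CSD replicate 7.

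Numbers 2 and 6 occur in both groups, and the deviations of HC and CSD arrays with the same number correlated at −0.21 and −0.04. A single pair of arrays per number cannot show whether mice of the same number had a cage or batch in common. What the number stands for was not tested. With the replicate number as a block, 0 of the 5 genes and 0 pathway genes passed at an unadjusted p, and the differences were −0.11 for Drd1, −0.38 for Drd2, 0.08 for Drd4, −0.11 for Adra1b and −0.23 for Ppp1r1b. The block leaves only these pairs to estimate the difference.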

Other observations

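Genes of other cell types are given beside all named genes, of which 6.52% were lower and 1.89% higher at an unadjusted p in limma. Of 9 genes of upper-layer neurons 2 were higher in CSD mice (22.2%) and 0 lower, with a median of 0.02. These were Calb1, a calcium-binding protein, at 0.14 (standard error 0.05) and Otof, otoferlin, at 0.12 (standard error 0.05). Of 12 genes of inhibitory neurons 0 passed and 10 had a lower mean, where 57.1% of all named genes had one. Dlx1 was at −0.20 and Dlx6 at −0.17, transcription factors of these neurons. Of 8 genes of oligodendrocyte precursors 4 were lower (50% of the list), namely Olig2, which specifies the lineage, at −0.33 (standard error 0.06) with groups that did not overlap, and Lhfpl3 at −0.13 (standard error 0.05), besides Sox6 and Olig1. Of 8 measured genes of microglia 1 was lower (12.5%), P2ry12, a purine receptor, at −0.14 (standard error 0.06), and Siglech had a value of −0.09. Of 10 endothelial and mural genes 1 was lower (10%), Tek, an angiopoietin receptor, at −0.21 (standard error 0.06), and Slco1a4, a transporter of the blood-brain barrier, had a value of −0.14. None of these genes passed the adjustment in limma.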
